A study of Mus musculus with 6 samples.

Results

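The 10 genes described here encode the subunits of the WAVE complex and were taken by symbol from a table of 55487 genes. They are Abi1, Abi2 and Abi3, Wasf1, Wasf2 and Wasf3, Cyfip1 and Cyfip2, Nckap1, and Brk1, and all 10 were found, each under 1 gene identifier. They were chosen because Abi2 was among the large falls of the knockout aorta in these same data, so their differences between knockout and control are given as a description, with the question of whether a paralog made up for Abi2. All 10 passed the filter on low counts that left 16139 genes.

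The WAVE complex is an assembly of a WASF (WAVE) protein, an ABI protein, a CYFIP protein, an NCKAP1 protein and BRK1. It keeps the actin-nucleating end of the WASF protein inactive until active Rac binds the CYFIP subunit, whereupon WASF switches on the Arp2/3 complex and a branched actin network grows, as in the lamellipodium of a moving cell. ABI proteins, named as interactors of the Abl tyrosine kinases, join WASF to the rest of the complex, and Abi1 has been linked to the actin polymerization that accompanies contraction in airway smooth muscle.

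RNA was sequenced from whole aorta of mice in 6 libraries. In 3 libraries, called knockout here, the mice carried a deletion of Ogt restricted to smooth muscle cells. The other 3, called control, came from mice whose genotype is given as LoxP, the recombination sites that Cre acts on. The sample titles of both groups name SM22, another name for the smooth muscle protein transgelin. Ogt encodes O-GlcNAc transferase, which attaches N-acetylglucosamine to nuclear and cytoplasmic proteins. The labels used here give no Cre line, age or sex and no number of mice per library. The p-values therefore measure only the spread between these libraries, which may be partly technical. Whole aorta also holds endothelial, adventitial and perivascular fat cells, and in such bulk RNA fewer cells of a type and less RNA per cell cannot be told apart.

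Total counts ran from 3038782 to 18218385, with the lowest in control replicate 2, where mitochondrial ribosomal RNA took 10.2% of counts against 0.491% to 0.823% in the other 5 libraries. Levels are given as CPM, the count of a gene scaled to the size of its library, with trimmed mean of M values (TMM) factors. Ogt itself had 93.3, 73.5 and 70.9 CPM in knockout replicates 1 to 3, against 177, 183 and 150.0 CPM in control replicates 1 to 3. Smooth muscle markers were abundant in every library, with summed levels of 26084 to 30884 CPM over 10 markers in knockout aorta and 31675 to 37763 CPM in control aorta. The difference of Ogt passed edgeR's quasi-likelihood test (log2 fold change -1.10, adjusted p = 0.0214). This call was lost without knockout replicate 1, 2 or 3 or control replicate 1. Of the 10 smooth muscle markers Tagln was called lower (log2 fold change -1.14), beside 1.56% of all tested genes. The 10 had 8 negative log2 fold changes, beside 8280 of 16139 tested genes, and a median of -0.17. For 4, with Des higher among them (0.61), the unadjusted p was under 0.05 in edgeR, beside 22.7%. Knockout and control libraries did not overlap for 5, beside 31.8%, and DESeq2 called 3 (8.68% of its genes) and limma 1 (4.73%).

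Abi2 stood far below control in every knockout library, while Abi1 and Abi3 overlapped between groups. Abi2 (ENSMUSG00000026782; GRCm38 chr1:60409619-60481158, plus strand) had 7.23, 6.59 and 6.98 CPM in knockout replicates 1 to 3, against 34.8, 20.0 and 32.9 CPM in control replicates 1 to 3. The groups did not overlap, and the knockout libraries lay close together while control replicate 2 lay below the other controls. These levels rested on 85, 112 and 128 reads in the knockout libraries and on 506, 54 and 452 reads in the controls. Mean Abi2 was 6.93 ± 0.324 CPM in knockout aorta and 29.2 ± 8.02 CPM in control aorta (SD, n = 3 each), which puts the knockout mean at 23.7% of control. On the log2 scale the difference, knockout minus control, was -2.10 ± 0.22 (SE).

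Abi1 (ENSMUSG00000058835; chr2:22940073-23040241) was the most abundant ABI gene by count. It had 41.7, 67.0 and 66.9 CPM in knockout replicates 1 to 3, against 58.1, 67.9 and 46.8 CPM in control replicates 1 to 3. The groups overlapped, with the lowest value in a knockout library and the highest in a control. The log2 fold change of Abi1 was 0.04 ± 0.22 (SE), with a 95% interval of -0.47 to 0.55, so a modest rise or fall lies within the error. Abi3 (ENSMUSG00000018381; chr11:95830074-95842476), also called NESH, had 9.70, 10.5 and 6.38 CPM in knockout replicates 1 to 3, against 11.1, 12.2 and 10.2 CPM in control replicates 1 to 3. Its groups overlapped as well, and its log2 fold change was -0.32 (95% interval -0.85 to 0.20). The span of Abi3 overlaps those of Zfp652, Gngt2 and Phospho1, and the strand setting of the counting is not given in the sources used here, so reads of these genes cannot be told apart there. Abi1 overlaps Pdss1 and Cyfip1 overlaps Nipa2 in the same way at one end.

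**Figure D1:**
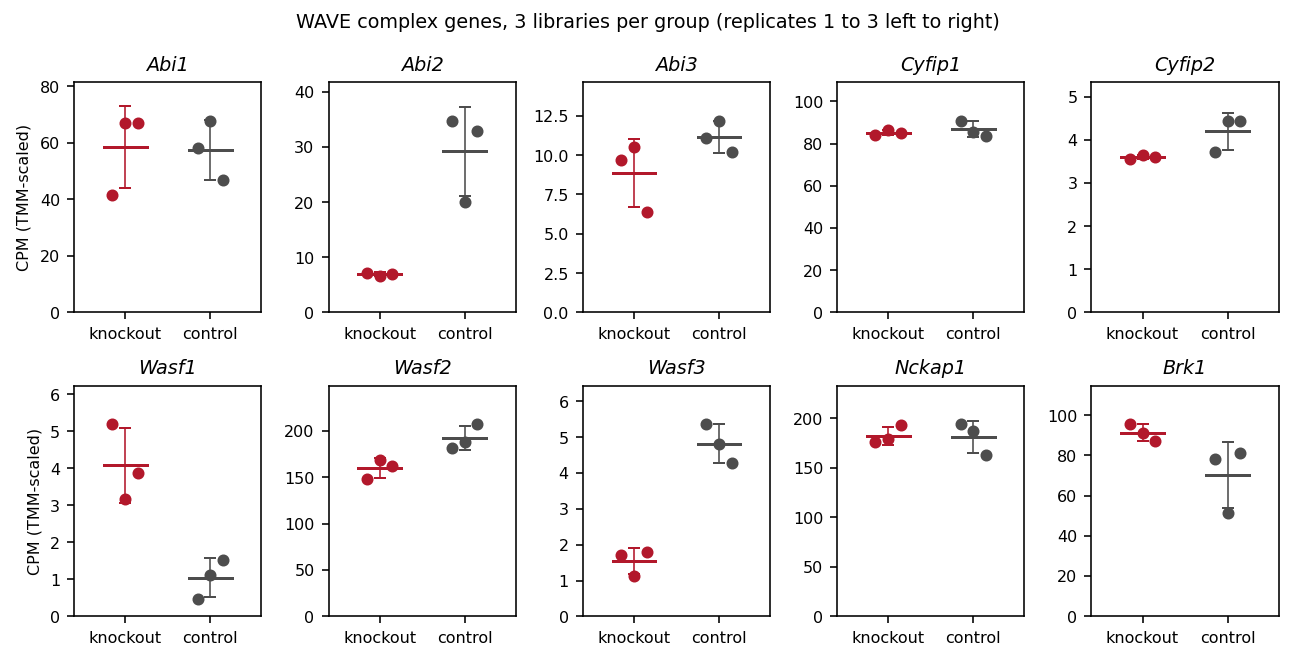
CPM of each of the 10 WAVE complex genes in the 3 knockout libraries (left, red) and the 3 control libraries (right, grey), with a dot per library, a line at the mean and bars of 1 SD; each panel has its own axis, starting at 0. Abi2 and Wasf3 lie lower and Wasf1 lies higher in every knockout library, while Abi1, Cyfip1 and Nckap1 overlap between groups.

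Of the 10 genes, 2 passed edgeR's quasi-likelihood test over all genes at an adjusted p under 0.05, both lower (Abi2 and Wasf3), against 3.45% of all 16139 tested genes called in either direction and 1.56% called lower. Knockout and control libraries did not overlap for 6 of the 10, beside 31.8% of the tested genes. An unadjusted p under 0.05 and a fitted change of at least 2-fold each held for 3 (Abi2, Wasf1 and Wasf3), beside 22.7% and 6.88% of the tested genes. DESeq2 called 3 (8.68% of its genes), limma 2 (4.73%) and edgeR without control replicate 2 called 2 (5.51%). The median log2 fold change was -0.12 over the 10 and -0.01 over all tested genes. Since Abi2 was chosen from this comparison, these counts are not evidence about the complex. The Abi2 call was lost without knockout replicate 1, 2 or 3 or control replicate 1 (log2 fold changes -2.12, -2.06, -2.10 and -1.97), and that of Wasf3 without any library other than control replicate 2 (-1.78 to -1.45).

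The coding sequence of Abi2 was alike but far from identical to those of its paralogs. Over the longest complete coding sequences of the GENCODE M21 annotation, 60.9% of alignment columns were identical between Abi1 and Abi2, 46.4% between Abi2 and Abi3 and 47.9% between Abi1 and Abi3. No run of 50 bases was shared between the annotated transcripts of any of the 10 genes. Of 8916 such runs in Abi2 transcripts, 28 (0.314%) occurred in a transcript of another gene, 18 of them in Zw10.

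Among the WASF genes, which encode the subunit that activates Arp2/3, the 2 scarce paralogs differed in opposite directions and the abundant one by little. Wasf1 (WAVE1, best known from neurons; ENSMUSG00000019831; chr10:40883475-40938570) had 5.19, 3.18 and 3.87 CPM in knockout replicates 1 to 3, against 0.481, 1.11 and 1.53 CPM in control replicates 1 to 3. Every knockout library was above every control, and the knockout mean was 3.92-fold that of control. The log2 fold change of Wasf1 was 1.99 ± 0.46 (SE) and did not pass the test over all genes, with control levels resting on 7, 3 and 21 reads and knockout levels on 61, 54 and 71. It was 1.52 without control replicate 1 and 2.65 without control replicate 3. DESeq2 and edgeR without the filter on low counts called Wasf1 higher, and the other alternative fits did not.

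Wasf3 (WAVE3; ENSMUSG00000029636; chr5:146384985-146473615) lay the other way. It had 1.70, 1.12 and 1.80 CPM in knockout replicates 1 to 3, against 5.36, 4.82 and 4.29 CPM in control replicates 1 to 3. The groups did not overlap, the knockout mean was 31.9% of control and the log2 fold change was -1.65 ± 0.29 (SE), from 19 to 33 reads per knockout library and 13 to 78 per control library. Wasf2 (WAVE2, the widely expressed form; ENSMUSG00000028868; chr4:133130505-133199756) had 148, 169 and 162 CPM in knockout replicates 1 to 3, against 182, 188 and 207 CPM in control replicates 1 to 3. Its groups did not overlap either, but the gap was small, with a log2 fold change of -0.27 (95% interval -0.54 to 0.01).

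The promoters of the 3 WASF genes are shown because these paralogs differed in opposite directions. Each window runs from 250 bases before to 50 bases after the gene's start, on the gene's plus strand, as RefSeq gives it on GRCm38.p6: chr10:40883284-40883583 for Wasf1, chr4:133130383-133130682 for Wasf2 and chr5:146384756-146385055 for Wasf3. Capitals mark the GC box (GGGCGG) and the CCAAT box (CCAAT), found on either strand, with no overlap between them.
Wasf1: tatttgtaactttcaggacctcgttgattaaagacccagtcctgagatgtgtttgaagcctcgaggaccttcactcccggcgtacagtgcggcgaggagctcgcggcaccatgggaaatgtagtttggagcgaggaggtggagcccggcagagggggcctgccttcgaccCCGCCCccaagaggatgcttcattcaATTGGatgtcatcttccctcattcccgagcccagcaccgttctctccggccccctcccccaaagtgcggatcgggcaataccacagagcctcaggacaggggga
Wasf2: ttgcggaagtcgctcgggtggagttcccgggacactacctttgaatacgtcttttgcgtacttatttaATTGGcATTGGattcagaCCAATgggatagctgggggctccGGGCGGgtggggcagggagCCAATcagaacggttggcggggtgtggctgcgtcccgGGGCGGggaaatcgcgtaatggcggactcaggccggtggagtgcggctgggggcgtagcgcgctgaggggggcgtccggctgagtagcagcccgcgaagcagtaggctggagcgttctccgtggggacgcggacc
Wasf3: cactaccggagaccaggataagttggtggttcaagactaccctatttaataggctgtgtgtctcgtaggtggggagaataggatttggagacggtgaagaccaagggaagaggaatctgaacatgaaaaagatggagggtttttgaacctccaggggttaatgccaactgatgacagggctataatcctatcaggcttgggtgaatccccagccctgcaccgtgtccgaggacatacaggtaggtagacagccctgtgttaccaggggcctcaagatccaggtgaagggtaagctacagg
The Wasf2 window held 2 GC boxes and 4 CCAAT boxes, the Wasf1 window 1 of each, and the Wasf3 window 0 of both. Across 32851 promoter windows of that length, 35.7% held a GC box and 37.4% a CCAAT box. GC content was 59% for Wasf1, 64.3% for Wasf2 and 50.7% for Wasf3, with a median of 52.7% over all windows, and the windows held 17, 29 and 5 CpG pairs in that order of genes. Searched on both strands, the cyclic AMP response element core (TGACGT), the E-box (CACGTG), the ETS site (CCGGAA), the AP-1 site (TGANTCA), the TATA box (TATAAA), the NRF1 core (GCGCATGC) and the CArG box of serum response factor had 0 matches in the 3 windows, and were held by 1.63% (CArG box) to 14.9% (ETS site) of all windows.

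**Figure D2:**
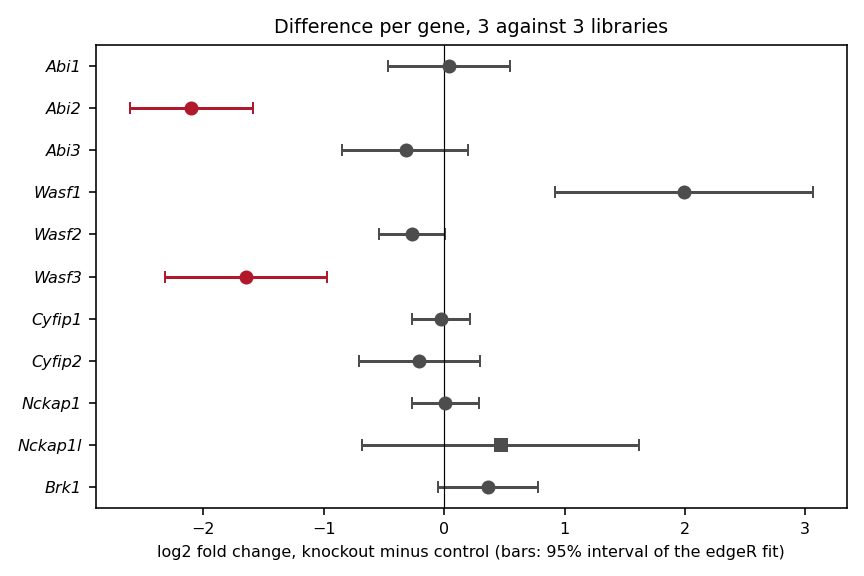
Log2 fold change (knockout minus control, horizontal axis) of the WAVE complex genes, with bars for the 95% interval from the edgeR fit on 3 against 3 libraries; red marks genes with an adjusted p under 0.05 over all genes, and the square is Nckap1l, which is outside the 10. Abi2 (-2.10) and Wasf3 (-1.65) lie left of 0, Wasf1 (1.99) lies right of it, and the intervals of the other 7 genes and of Nckap1l include 0.

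The CYFIP and NCKAP1 subunits, which form the Rac-binding core, were close to control. Cyfip1 (Sra-1, which also binds the fragile X protein and the cap-binding factor eIF4E; ENSMUSG00000030447; chr7:55841745-55932602) had 84.1, 86.3 and 84.8 CPM in knockout replicates 1 to 3, against 90.9, 85.6 and 83.6 CPM in control replicates 1 to 3. The groups overlapped, and the 95% interval of the log2 fold change ran from -0.27 to 0.21. Cyfip2 (PIR121; ENSMUSG00000020340; chr11:46193850-46312859) was far scarcer, with 3.57, 3.65 and 3.60 CPM in knockout replicates 1 to 3, against 3.71, 4.45 and 4.43 CPM in control replicates 1 to 3. Its groups were just apart, at a log2 fold change of -0.21 (95% interval -0.71 to 0.30). Nckap1 (Nap1, the scaffold partner of CYFIP; ENSMUSG00000027002; chr2:80500512-80581380) had 176, 179 and 193 CPM in knockout replicates 1 to 3, against 194, 187 and 163 CPM in control replicates 1 to 3. Knockout and control ranges overlapped, and the log2 fold change was 0.01 (95% interval -0.27 to 0.29).

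Nckap1l (HEM1), the blood-cell form of Nckap1, is not among the 10 genes and had 12.3, 13.5 and 10.2 CPM in knockout replicates 1 to 3, against 7.01, 2.22 and 14.6 CPM in control replicates 1 to 3. The control libraries spanned the whole knockout range, and the gene was not called (log2 fold change 0.47 ± 0.49 SE, edgeR adjusted p = 0.605). Brk1 (HSPC300, the smallest subunit; ENSMUSG00000033940; chr6:113604772-113616951) had 95.4, 91.1 and 87.1 CPM in knockout replicates 1 to 3, against 78.4, 51.2 and 81.1 CPM in control replicates 1 to 3. All knockout libraries were above all controls, with control replicate 2 lowest. The log2 fold change of Brk1 was 0.36 (95% interval -0.05 to 0.78), and 0.20 without control replicate 2.

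Summed per position of the complex, the ABI genes came to somewhat less RNA in knockout aorta, with a smaller share of Abi2. Levels per length (CPM per kilobase) used the gene length implied by the deposited counts and FPKM. The ABI sum was 4.62, 6.28 and 5.57 in knockout replicates 1 to 3, against 7.30, 7.33 and 6.35 in control replicates 1 to 3, so the knockout mean was 78.5% of control and the groups were apart by a small gap. Abi2 made up 8.1%, 5.43% and 6.49% of that sum in knockout replicates 1 to 3, against 24.7%, 14.2% and 26.8% in control replicates 1 to 3. Abi1 made up 64.6% ± 9.16 in knockout aorta and 50.1% ± 5.90 in control aorta (SD, n = 3 each), with overlapping libraries (55.2% to 73.5% in knockout and 45.1% to 56.6% in control). Its own level per length was 3.58 ± 0.892 in knockout and 3.52 ± 0.644 in control aorta. With the length of the longest protein-coding transcript instead, an alternative chosen after seeing the data, the knockout sum was 83.2% of control and the groups overlapped (15.9, 23.5 and 22.5 in knockout libraries, against 25.9, 26.5 and 22.0 in control libraries).

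The WASF sum was 20.2, 22.2 and 21.6 in knockout replicates 1 to 3, against 23.8, 24.6 and 27.1 in control replicates 1 to 3. These groups did not overlap, and the knockout mean was 84.7% of control, but on the deposited FPKM the highest knockout and the lowest control sum were both 21.9. Wasf2 supplied most of it, 91.7% to 95.3% in knockout libraries and 95.2% to 95.6% in control libraries. Wasf1 supplied 3.79% to 6.8% in knockout libraries and 0.535% to 1.49% in control libraries, and Wasf3 supplied 0.922% to 1.54% in knockout libraries and 2.89% to 4.12% in control libraries. The knockout mean was 97.3% of control for the CYFIP sum, 101% for Nckap1 and 130% for Brk1.

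**Figure D3:**
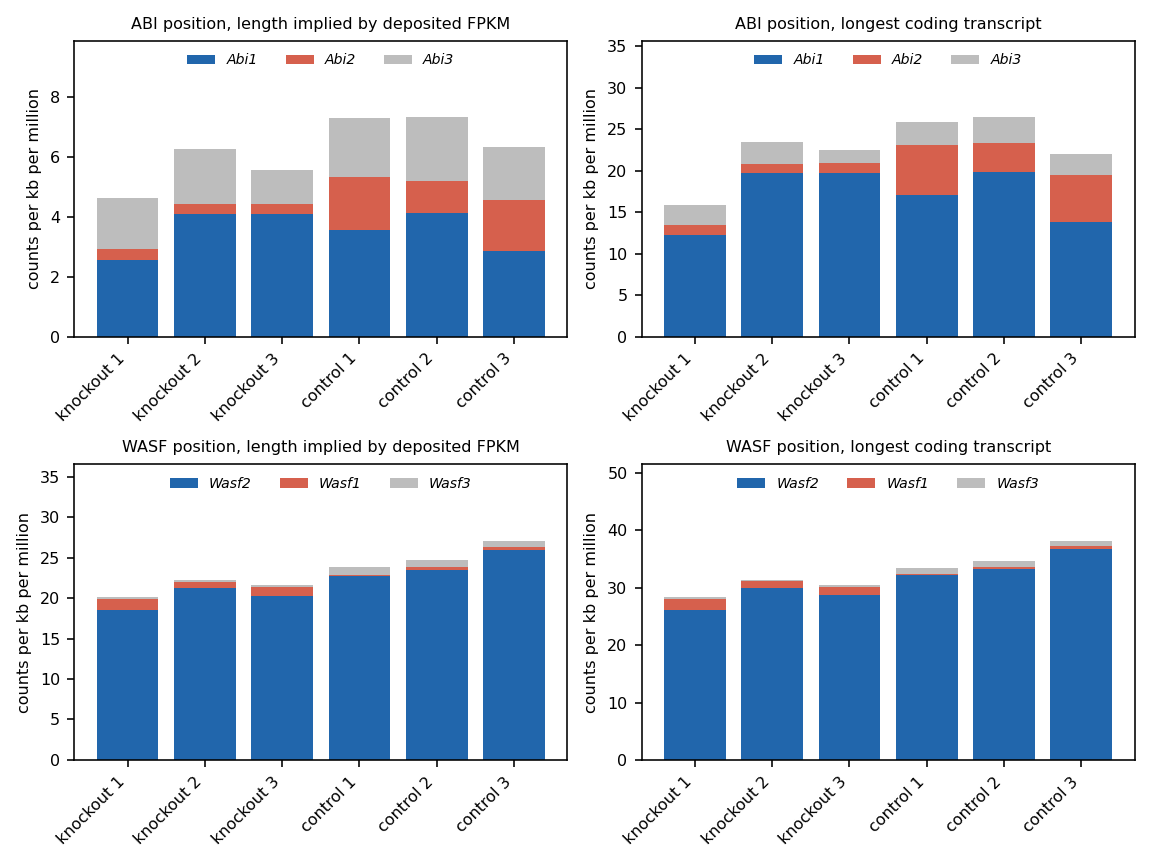
Levels per length (CPM per kilobase, TMM-scaled) of the ABI genes (upper panels) and WASF genes (lower panels), stacked per library with knockout libraries left of control libraries; left panels use the gene length implied by the deposited values and right panels the longest protein-coding transcript. The Abi2 segment is small in the 3 knockout libraries, the Abi1 segment is not taller there as a group, and Wasf2 fills most of each WASF bar.

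The members differed widely in level. By mean level per length in knockout aorta the order was Brk1 (83.3), Nckap1 (26.5), Wasf2 (20.0), Cyfip1 (5.52), Abi1 (3.58), Abi3 (1.55), Wasf1 (1.08), Abi2 (0.359), Cyfip2 (0.342) and Wasf3 (0.282). Abi3 and Wasf1 did not differ beyond their spread in that order, nor did Abi2 and Cyfip2. In control aorta the order was Brk1 (64.1), Nckap1 (26.3), Wasf2 (24.0), Cyfip1 (5.63), Abi1 (3.52), Abi3 (1.96), Abi2 (1.51), Wasf3 (0.883), Cyfip2 (0.398) and Wasf1 (0.275). Nckap1 and Wasf2, Abi3 and Abi2, and Cyfip2 and Wasf1 were the neighbours whose control libraries overlapped. The mean of Wasf1 stood in place 7 in knockout aorta and in place 10 in control aorta.

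The order among ABI and CYFIP genes depended on the length used. The length implied by the deposited values equalled, for 26767 of 29047 genes compared, the summed length of all distinct annotated exons, in which exons that overlap are counted repeatedly. It was 19307 bases for Abi2 and 16344 for Abi1, where the longest protein-coding transcripts have 5768 and 3403 bases. With the transcript length, the mean of Abi1 (17.2 in knockout and 16.9 in control aorta) lay above that of Cyfip1 (13.2 in knockout and 13.5 in control aorta), but their libraries overlapped in both groups. Abi2 in control aorta (5.07) lay above Abi3 (2.79), without overlap. Differences between knockout and control of a single gene do not depend on this length.

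Of the 6 tested genes nearest Abi2 on chromosome 1, edgeR, DESeq2 and limma called 0 over all 6 libraries. Over all genes that each tested, they called 3.45%, 8.68% and 4.73%. An unadjusted p under 0.05 in edgeR and groups apart each held for 1 (Cyp20a1), beside 22.7% and 31.8% of the tested genes. With only 6 genes, these counts cannot show a departure from those shares. Raph1, which encodes lamellipodin, a partner of the WAVE complex at the leading edge, lies 1.13 kb from the end of Abi2 on the opposite strand and had 48.9 ± 4.06 CPM in knockout and 39.1 ± 12.0 CPM in control aorta (SD, n = 3 each; edgeR adjusted p = 0.399). Cyp20a1, 21.6 kb away on the other side, had 23.8 ± 1.28 CPM in knockout and 32.3 ± 2.27 CPM in control aorta, with groups apart and no call (log2 fold change -0.44, edgeR adjusted p = 0.0893). Without control replicate 2 it was called lower (-0.49, edgeR adjusted p = 0.0488). Nbeal1, 71.3 kb away, had 107, 113 and 113 CPM in knockout replicates 1 to 3, against 118, 309.6 and 98.9 CPM in control replicates 1 to 3, and its difference turned on control replicate 2 (log2 fold change -0.65, and 0.04 without it). The other 3 of the 6 nearest tested genes, 6030460B20Rik and the pseudogenes Gm11575 and Eif4a-ps4, had log2 fold changes of 0.07, -0.04 and 0.10 and were not called. No gene of the table overlapped the span of Abi2, Wasf1 or Wasf3.

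Markers of other cell types were set beside these values. Brown adipocyte markers, from the fat around the vessel, were called lower in knockout aorta for 3 of 9 tested members (Ucp1, Cox8b and Cox7a1). Over all tested genes 1.56% were called lower. The summed level over 10 markers was 162 to 216 CPM in knockout libraries and 295 to 433 CPM in control libraries. None of the 10 was at 0 in all 6 libraries. All 9 tested members had a negative log2 fold change (median -1.14), beside 8280 of all 16139 tested genes. An unadjusted p under 0.05 in edgeR held for 7, beside 22.7% of the tested genes. DESeq2 called 6 and limma 3, beside 8.68% and 4.73% of the genes that each tested. The sum over the 10 markers was highest in control replicate 2, where Prdm16 alone gave 245 CPM, against 177 and 138 CPM in control replicates 1 and 3. Prdm16 had 93.8 to 138 CPM in knockout libraries, and its groups overlapped. Ucp1 had 8.34, 6.71 and 6.05 CPM in knockout replicates 1 to 3, against 36.6, 38.9 and 39.5 CPM in control replicates 1 to 3. Its log2 fold change was -2.45 (edgeR adjusted p = 0.0023). Schwann cell and neuron markers, set beside Wasf1 and Wasf3, summed to 547 to 585 CPM in knockout libraries and 458 to 541 CPM in control libraries. Ncam1 alone gave 484 to 529 CPM in knockout and 399 to 476 CPM in control libraries, and the other 11 markers overlapped, with sums of 54.5 to 75.5 CPM in knockout and 54.8 to 65.6 CPM in control libraries. Leukocyte markers, set beside Abi3 and Nckap1l, summed to 344 to 415 CPM in knockout libraries and 184 to 512 CPM in control libraries. In the skeletal muscle list 1 of 5 tested members (Ckm) and in the mesothelium list the 1 tested member (Krt18) were called higher. Over all tested genes 1.9% were called higher. Endothelial markers summed to 1748, 1766 and 759.9 CPM in knockout replicates 1 to 3, against 898, 1082 and 1031 CPM in control replicates 1 to 3. Knockout replicates 1 and 2 were above all controls and knockout replicate 3 below them, and 8 of the 10 markers had a positive log2 fold change (median 0.40). By edgeR 0 of 10 endothelial, 10 fibroblast, 10 leukocyte, 10 white adipocyte and 9 Schwann cell or neuron genes tested were called, with 0, 1, 0, 2 and 1 at an unadjusted p under 0.05, and DESeq2 and limma called 0 in each. The part of these cell types in the differences above was not tested.

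The genes with a pattern most like that of Abi2 over the 6 libraries had shallower differences. Among 10934 tested genes with a mean of at least 5 CPM, 480 had a Pearson correlation with Abi2 above 0.9, and the highest were those of Sirt3 (0.995), Zc3h7b (0.995), Vps39 (0.993), Macrod1 (0.993), Ift57 (0.992) and Qars (0.992), on log2 CPM. Their log2 fold changes were -0.46, -0.18, -0.37, -0.73, -0.61 and -0.55, against -2.10 for Abi2. Within the complex the correlation with Abi2 was 0.95 for Wasf3, 0.83 for Wasf2, -0.90 for Wasf1 and -0.14 for Abi1. The points share the knockout and control groups, so these values describe the libraries only.

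Around the complex, 96 genes of actin branching were examined in 6 lists, and 5 rose and 0 fell by edgeR. That is 5.21% of the 96, against 3.45% of all tested genes, and 1.9% of all tested genes were called higher. Each rise belonged to a different list. The 5 are Arpc1b, Rac3, Arhgap24, Cttn and Eps8l1. None of the 5 was called without knockout replicate 1, 2 or 3 or control replicate 1. Without control replicate 3, Arpc1b alone of the 5 was called, beside Swap70 higher and Srgap3 lower, and without control replicate 2 the call of Rac3 was lost and Tiam2 was called higher. Srgap3 was called lower in 4 of the alternative fits: DESeq2, which called 10 higher and 1 lower, edgeR without control replicate 3, edgeR without the filter on low counts, and edgeR on nuclear protein-coding genes.

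In the Arp2/3 complex, which nucleates the branches, 1 of 10 tested genes rose and 9 were not called. Over all tested genes 3.45% were called in either direction and 1.9% higher. Log2 fold changes were positive for 9 of the 10 (median 0.37), beside 7859 of all 16139 tested genes (median -0.01). An unadjusted p under 0.05 in edgeR and groups apart each held for 5, beside 22.7% and 31.8% of the tested genes. Arpc1b, which encodes a WD-repeat subunit, had 372, 358 and 393 CPM in knockout replicates 1 to 3, against 204, 195 and 243 CPM in control replicates 1 to 3. The groups were well apart, at a log2 fold change of 0.80 ± 0.13 (SE, edgeR adjusted p = 0.0295). Arpc2 (log2 fold change 0.58, edgeR adjusted p = 0.0686) and Arpc1a (0.44, edgeR adjusted p = 0.0906) had groups apart and did not pass. The summed level of the 10 subunit genes was 1476 to 1571 CPM in knockout libraries and 1014 to 1222 CPM in control libraries, without overlap.

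Of 27 Rac GTPases and exchange factors, 1 rose and 26 were not called (median log2 fold change 0.10). That is 3.7% called, close to the 3.45% of all tested genes called in either direction (1.9% higher). Rac3, a Rac GTPase best known from the nervous system, had 16.2 ± 3.30 CPM in knockout and 7.85 ± 0.931 CPM in control aorta (SD, n = 3 each; log2 fold change 1.02, edgeR adjusted p = 0.0431). Swap70 (0.68, edgeR adjusted p = 0.0616) and Dock5 (0.67, edgeR adjusted p = 0.0756), both linked to Rac activation, did not pass. Of 12 Rac GTPase-activating proteins, which switch Rac off, Arhgap24 (FilGAP) rose, with 54.1 ± 5.75 CPM in knockout and 34.9 ± 2.96 CPM in control aorta (log2 fold change 0.63, edgeR adjusted p = 0.0484), and the list's median was 0.19. This 1 call is 8.33% of the list, beside the same shares of all tested genes. Srgap3, a GAP that binds WASF1 (WAVE-associated Rac GAP), had 17.9 ± 2.66 CPM in knockout and 35.4 ± 8.70 CPM in control aorta and missed the threshold (-0.97, edgeR adjusted p = 0.0532; 0.00314 to 0.206 over the alternatives). Racgap1 had a log2 fold change of 0.96 (edgeR adjusted p = 0.115).

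Of 14 other Arp2/3 activators and cofactors, 1 rose and 13 were not called (median 0.11). That is 7.14% called, beside 3.45% of all tested genes called in either direction and 1.9% called higher. Cttn, which encodes cortactin, a stabilizer of actin branches, had 224 ± 6.90 CPM in knockout and 153 ± 13.1 CPM in control aorta (log2 fold change 0.55, edgeR adjusted p = 0.0486). The WASH complex genes Washc3 (-0.56, edgeR adjusted p = 0.13) and Washc1 (0.49, edgeR adjusted p = 0.181) did not pass. Of 8 inhibitors of Arp2/3 and of branches, edgeR, DESeq2 and limma called 0, with 1 at an unadjusted p under 0.05 (Pick1, log2 fold change -0.43, edgeR adjusted p = 0.0893) and a median of 0.08. Over all genes that each tested, they called 3.45%, 8.68% and 4.73%, and 22.7% had an unadjusted p under 0.05 in edgeR. The coronin genes Coro1a and Coro1c had log2 fold changes of 0.55 and -0.14 and overlapping groups. Among 25 partners of the WAVE complex, such as Abl kinases, Nck adaptors and lamellipodin, 1 rose and 24 were not called (median 0.20). That is 4% called, close to the 3.45% of all tested genes. Eps8l1, a relative of the actin regulator Eps8, had 6.13 ± 0.761 CPM in knockout and 2.76 ± 0.430 CPM in control aorta (log2 fold change 1.17, edgeR adjusted p = 0.046). Vasp, an actin filament elongator, and Fxr2, of the fragile X protein family, did not pass (0.42 and 0.29, edgeR adjusted p = 0.116 and 0.183).

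**Figure D4:**
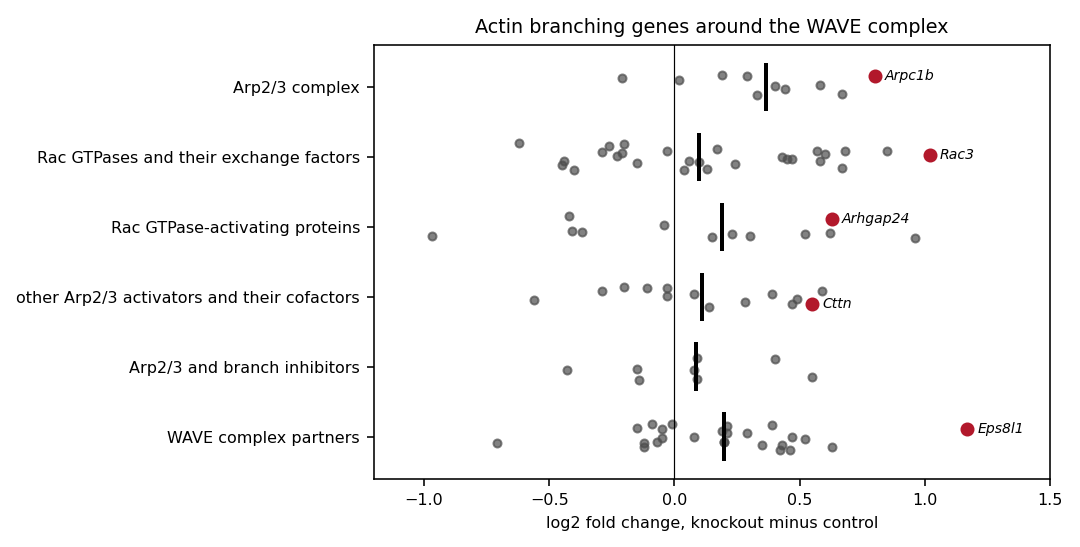
Log2 fold change (knockout minus control, horizontal axis) of every tested gene in the 6 lists of actin branching genes, a dot per gene, with a vertical bar at each list's median; red dots with names passed an adjusted p of 0.05 in edgeR's test over all genes. The 5 named genes all lie right of 0, and 9 of the 10 Arp2/3 genes do so too.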

How the data were processed

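Whole-aorta RNA of 3 knockout and 3 control libraries was grouped by the sample titles. Per the submitters' processing notes, CASAVA 1.8, HISAT2, SAMtools 1.3.1 and edgeR were used. Which program counted the reads, and with which strand setting, is not given in the sources used here. The authors deposited whole-number read counts and FPKM values, in which a count is scaled by the library total and a single length for each gene. The notes name GRCm39, but 99.4% of 55141 gene identifiers shared with GENCODE M21 had the same GRCm38 positions, so positions are given as GRCm38.

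Counts were filtered with filterByExpr, scaled by TMM and tested in R 4.3.3 by edgeR 4.0.16 with the robust quasi-likelihood functions glmQLFit and glmQLFTest and no covariate, with Benjamini-Hochberg adjustment over 16139 genes and a threshold of 0.05. The SE was derived from the log2 fold change and its F statistic. DESeq2 1.42.0, limma 3.58.1, other scalings and filters, and leaving out each library were alternatives. The steps were tested on simulated counts.

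The members and lists were chosen with earlier results of these data known. Besides the members, the genes named are Ogt, Nckap1l, called list genes or those with the smallest p up to 3 per list, the 3 tested genes nearest Abi2 on each side, and the 6 most correlated with Abi2. Tiam2 and the marker genes named were chosen after their values were seen. Coding sequences came from GENCODE M21 and were aligned with Biopython 1.88. Protein identity was not analysed here.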

Additional observations from a re-analysis of the deposited data

How the results depend on the processing

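Abi2 stayed lower in every fit run. Its log2 fold change was -2.28 to -1.97 when each library was left out in turn, and that of Ogt was -1.22 to -1.02. Without knockout replicate 1, 2 or 3 or control replicate 1, Ogt was not called (edgeR adjusted p = 0.0729, 0.126, 0.0732 and 0.105). Left-out libraries gave 7 to 911 called genes (4 to 491 higher, 3 to 420 lower), 0 to 2 called WAVE complex genes and 0 to 5 called genes of the 6 lists. DESeq2 called 1447 genes (796 higher, 651 lower) and 11 list genes, and edgeR without robust estimation called 3 list genes. Replicate numbers follow the sample titles, and the numbers in the submitters' own library names differ between groups. Deviations from the group means had correlations of 0.0524, 0.0856 and -0.0601 between same-numbered libraries. Between differently numbered libraries these ran from -0.0981 to 0.0972. With 3 libraries per group such values cannot show whether libraries were paired. With the replicate number as a block, edgeR called 28 genes (18 higher, 10 lower), 1 WAVE complex gene (Abi2) and 0 list genes, and Ogt (-1.11, edgeR adjusted p = 0.0572) was not called.

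With the longest protein-coding transcript as length, Abi2 ranked 6 of 10 in control aorta, in place of 7. The knockout sum per position, as a percent of control, moved by less than the spread between libraries under each scaling, length and left-out library tried. Neighbours of Abi2 changed sign: Nbeal1 (-0.93 to 0.04 over left-out libraries) and Eif4a-ps4 (-0.04 to 0.18) without control replicate 2, 6030460B20Rik (-0.21 to 0.33, below 0 without knockout replicate 2, and -0.06 with the replicate block), and Gm11575 (0.14, 0.08 and 0.02 without knockout replicate 1, control replicate 1 and control replicate 2). The cause of these shifts was not tested. Depth limits Wasf1, Wasf3 and Cyfip2 most, with 3, 13 and 12 reads in control replicate 2.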
